A study of Homo sapiens with 6 samples.

Results

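Toll-like receptors and the proteins that carry their signal were followed across 6 lymphoma cell cultures through 10 genes, of 23834 genes in the tables. The choice was made by name from what is known of the pathway in B cells, with earlier results of these data known. The 10 were the receptor genes TLR1, TLR6, TLR7, TLR9 and TLR10, the receptor CD180 with its partner LY86, the adaptor MYD88 and the kinases IRAK1 and IRAK4. All 10 stood at 1 FPKM or more in every library, so none was lost to the filter on low values. Messenger RNA was sequenced from DAUDI (Burkitt lymphoma) and DOHH2 (follicular lymphoma) cells, each as a culture labelled WT, a culture resistant to idelalisib and a culture resistant to ibrutinib, with 1 library per culture. The drugs block kinases below the B cell receptor, PI3K delta for idelalisib and BTK for ibrutinib. The question was which transcripts differ between resistant cells and cells labelled WT, and between the lines and the drugs. How resistance was raised, whether a resistant culture is 1 clone, and whether the drug was present at harvest are not stated in the labels.

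Toll-like receptors recognise molecules of microbes. TLR1, TLR6 and TLR10 act at the cell surface and belong to the family that pairs with TLR2, while TLR7 and TLR9 sense RNA and DNA inside endosomes. Toll-like receptors other than TLR3 can signal through MYD88, which gathers IRAK4 and IRAK1 into a complex that leads to NF-kB and MAP kinases. CD180, also called RP105, is a receptor relative that lacks the signalling domain of the family and reaches the surface of B cells with LY86, also called MD-1.

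Levels are FPKM, fragment numbers scaled to transcript length and library size, summed over the isoforms of a gene, so that levels may be compared between genes. Values of 6 libraries are given in the order WT-labelled, idelalisib-resistant and ibrutinib-resistant, for DAUDI and then for DOHH2. Differences are on the log2(FPKM + 1) scale, which understates the ratios of weakly expressed genes. Tests were made with limma over 12337 genes, taking both resistant libraries of a line as samples of its resistant state. A gene was called at a Benjamini-Hochberg adjusted p under 0.05. The p-values therefore measure a difference against the spread between cultures resistant to different drugs, pooled over both lines. A test within 1 line thus also draws on the spread in the other line. The tests assume that a lone WT-labelled library varies as much. Nothing in the labels says that cultures were repeated.

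Both WT-labelled libraries stood apart from the resistant libraries of their lines and near each other. Across 12337 genes, which are not independent replicates, Pearson's r of the log2 values was 0.958 between the WT-labelled libraries of the 2 lines and 0.698 to 0.717 between each and the resistant libraries of its own line. Within a line the resistant libraries had r of 0.943 (DAUDI) and 0.968 (DOHH2). Whether a difference from a WT-labelled library arose within 1 line therefore cannot be told apart from a difference in the origin of that library. The comparison of resistant DOHH2 with resistant DAUDI does not use those libraries. B cell markers were present throughout: 7 to 9 of 9 stood at 1 FPKM or more, with MS4A1 (CD20) between 192 and 435 FPKM. Depth read from coverage per FPKM was 0.935 to 1.42 times that of the WT-labelled DAUDI library, and absolute depth is unknown.

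CD180 and LY86, which encode the partners of 1 surface complex, moved in opposite directions. CD180 stood at 55.4, 26.1 and 24.8 FPKM in DAUDI, and in DOHH2 at 48.4, 5.90 and 5.79 FPKM. LY86 stood at 9.21, 41.9 and 37.8 FPKM in DAUDI, and in DOHH2 at 8.15, 37.9 and 35.9 FPKM. For both genes the 4 resistant libraries did not overlap the 2 WT-labelled ones, CD180 lying below them and LY86 above. Their hg19 positions are chr5:66478104-66492617 for CD180 and chr6:6588934-6655216 for LY86, and each has 1 isoform in the tables. The bases before each gene's start are shown because these genes moved apart and by the largest amounts.
CD180: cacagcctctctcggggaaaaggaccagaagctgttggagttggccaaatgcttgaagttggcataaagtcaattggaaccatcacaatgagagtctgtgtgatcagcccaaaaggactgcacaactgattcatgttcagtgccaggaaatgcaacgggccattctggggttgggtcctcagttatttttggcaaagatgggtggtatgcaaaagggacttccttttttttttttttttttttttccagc
LY86: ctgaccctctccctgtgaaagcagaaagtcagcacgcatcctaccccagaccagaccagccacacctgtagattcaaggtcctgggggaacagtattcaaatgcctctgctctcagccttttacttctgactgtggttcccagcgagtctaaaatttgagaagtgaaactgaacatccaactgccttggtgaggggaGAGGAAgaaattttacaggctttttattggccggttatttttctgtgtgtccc
These are the 250 bases before the start in RefSeq (GRCh38.p14), read 5′ to 3′ along the gene: chr5:67196800-67197049 on the minus strand for CD180 and chr6:6588470-6588719 on the plus strand for LY86. Capitals mark matches on either strand to GAGGAA (the core bound by the B cell and myeloid factor PU.1), ATGCAAAT (the octamer), TGACTCA (AP-1) or the interferon-stimulated response element (GAAA, 2 bases of any kind and GAAA again). LY86 holds 1 match, to GAGGAA, 53 to 48 bases before the start, and CD180 holds none of the 4 motifs. Of 27305 promoters of this length, 23.4% hold GAGGAA, 1.66% the octamer, 4.16% the AP-1 letters and 3.07% the response element. A match describes the letters and is not evidence of binding.

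LY86 was 4.33 times as high in resistant DAUDI (mean 39.9 ± 2.86 FPKM, SD, n = 2) and 4.53 times as high in resistant DOHH2 (36.9 ± 1.47 FPKM, SD, n = 2) as in the library of that line labelled WT. The differences were 1.999 in DAUDI (95% confidence interval 1.64 to 2.36, limma adjusted p = 0.00304) and 2.05 in DOHH2 (1.69 to 2.41, limma adjusted p = 0.00281). Both calls were kept under all 13 alternative settings tried in each line. Among these, additive terms for line and state gave the same 2.02 for both lines, which is no test within 1 line. LY86 is also made by myeloid cells, and 1 (DAUDI) and 2 (DOHH2) of 12 myeloid markers stood at 1 FPKM or more in the WT-labelled libraries, 7 and 6 in resistant DAUDI and 2 in each resistant DOHH2 library. Their summed level was 16.3 and 21.0 FPKM in the WT-labelled libraries and 29.3 to 39.3 FPKM in the resistant ones, but its members went both ways. CD68 made up most of the sum in the WT-labelled libraries, at 16.1 and 18.7 FPKM, and stood at 1.84 to 4.29 FPKM in the resistant ones. CD33 was at most 0.0326 FPKM in the WT-labelled libraries, 2.29 and 10.6 FPKM in resistant DAUDI, and 29.1 and 26.2 FPKM in resistant DOHH2. In DAUDI, LYZ stood at 0.0884, 15.0 and 13.0 FPKM, FCN1 at a listed 0, 5.58 and 6.98 FPKM, and CSF1R at 0.0219, 5.73 and 2.20 FPKM, while in DOHH2 none of these 3 passed 0.199 FPKM. CD14 was at most 0.103 FPKM in any library. The part of these markers in the LY86 difference was not tested. LY86 did not pass between the resistant lines: DOHH2 minus DAUDI was -0.11 (-0.41 to 0.19, limma adjusted p = 0.465).

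The difference of CD180 from the WT-labelled library was larger in DOHH2. The WT-labelled DAUDI library held 2.18 times the resistant mean (25.4 ± 0.954 FPKM, SD, n = 2), and the WT-labelled DOHH2 library held 8.28 times its resistant mean (5.84 ± 0.0747 FPKM, SD, n = 2). On the log2 scale the differences were -1.09 in DAUDI (-1.40 to -0.79, limma adjusted p = 0.00754) and -2.85 in DOHH2 (-3.16 to -2.55, limma adjusted p = 0.000929). The test of the difference between these differences gave -1.76 (-2.19 to -1.33, limma adjusted p = 0.0193). Between the resistant cultures alone, CD180 was lower in DOHH2 than in DAUDI by 1.95 on the log2 scale, a value of -1.95 (-2.20 to -1.70, limma adjusted p = 0.00299). Additive terms for line and state gave the same -1.97 for both lines. Their line term also draws on the WT-labelled libraries, and at -1.36 it did not pass (limma adjusted p = 0.389). Without 1 of the resistant DOHH2 libraries 3 of these 4 limma calls were lost. The DAUDI call then had an adjusted p of 0.0596 or 0.0599 and the test between the differences 0.152 or 0.157. The test between resistant lines had 0.0631 or 0.0638, and the DOHH2 call was kept.

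The ratio of CD180 to LY86, both per length, was 6.01 and 5.94 in the WT-labelled libraries. It was 0.623 and 0.654 in resistant DAUDI, against 0.156 and 0.162 in resistant DOHH2. In the WT-labelled libraries CD180 was the most abundant of the 10 transcripts, and in resistant DOHH2 only 3 of the 10 stood lower. In all of these bulk cultures, fewer cells with a transcript and less RNA per cell cannot be told apart.

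**Figure D1:**
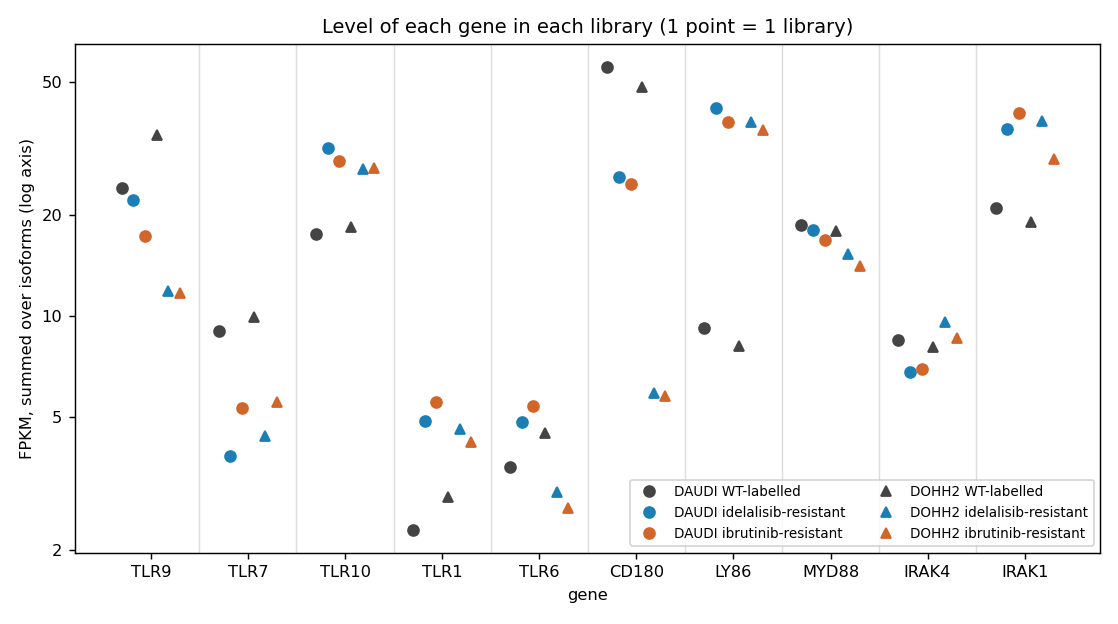
FPKM of each of the 10 genes (log axis) in each of the 6 libraries, 1 point per library, with circles for DAUDI, triangles for DOHH2 and colour for the state. CD180 runs from 55.4 FPKM in the WT-labelled DAUDI library to 5.79 FPKM in ibrutinib-resistant DOHH2, while the 4 resistant LY86 points lie between 35.9 and 41.9 FPKM.

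The DNA sensor TLR9 was the most abundant of the 5 Toll-like receptor transcripts in the WT-labelled libraries and was lower in resistant DOHH2. It stood at 24.2, 22.2 and 17.4 FPKM in DAUDI, and in DOHH2 at 34.8, 11.9 and 11.7 FPKM. All 4 resistant libraries lay below both WT-labelled ones, by a wide gap in DOHH2 and by a narrow one in DAUDI. In DOHH2 the WT-labelled library held 2.94 times the resistant mean, a difference of -1.48 (-2.04 to -0.92, limma adjusted p = 0.0135). In DAUDI the difference was -0.29 and did not pass (-0.84 to 0.27, limma adjusted p = 0.292). The test of the difference between the lines' differences also did not pass, at -1.19 (-1.98 to -0.40, limma adjusted p = 0.0919). Without either resistant DOHH2 library the TLR9 call in DOHH2 had an adjusted p of 0.0988 or 0.0976, and with additive terms for line and state the value was -0.88 (0.128). The gene lies at chr3:52255096-52260179 (hg19), and its promoter is shown because it holds the most matches among the 7 members with a RefSeq entry.
TLR9: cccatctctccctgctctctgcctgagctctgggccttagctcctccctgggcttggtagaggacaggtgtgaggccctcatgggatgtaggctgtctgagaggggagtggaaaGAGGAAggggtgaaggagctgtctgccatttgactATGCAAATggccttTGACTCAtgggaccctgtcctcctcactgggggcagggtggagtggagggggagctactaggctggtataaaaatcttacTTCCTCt
This is chr3:52225646-52225895 on the minus strand (GRCh38.p14), read along the gene, with capitals as above. GAGGAA matches 136 to 131 bases before the start and, on the opposite strand, 7 to 2 bases before it. The octamer lies 101 to 94 and the AP-1 letters 87 to 81 bases before the start. GAGGAA was found in 4 of the 7 members with an entry (TLR6, TLR9, MYD88 and LY86), the octamer and the AP-1 letters in TLR9, and the response element in MYD88. None of these matches overlaps another.

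TLR7, the endosomal RNA sensor at chrX:12885202-12908480 (hg19), stood at 9.06, 3.82 and 5.31 FPKM in DAUDI, and in DOHH2 at 9.97, 4.40 and 5.54 FPKM. Every resistant library lay below both WT-labelled ones. The WT-labelled libraries held 1.99 times the resistant mean in DAUDI and 2.01 times in DOHH2, but neither difference passed. The values were -0.87 in DAUDI (-1.62 to -0.11, limma adjusted p = 0.0715) and -0.89 in DOHH2 (-1.64 to -0.13, limma adjusted p = 0.0707). After rescaling of the libraries by the median of ratios or the upper quartile both passed, at adjusted p of 0.0347 and 0.0431 for DAUDI and of 0.0359 and 0.0432 for DOHH2. Per length, TLR9 exceeded TLR7 2.67-fold and 3.49-fold in the WT-labelled libraries of DAUDI and DOHH2, 3.27-fold to 5.82-fold in resistant DAUDI and 2.12-fold to 2.70-fold in resistant DOHH2.

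Plasmacytoid dendritic cells also use TLR7 and TLR9, and some of their marker genes were higher in the WT-labelled libraries too. Of the 5 markers, 2 (DAUDI) and 3 (DOHH2) stood at 1 FPKM or more in those libraries and 0 in any resistant library. GZMB, the granzyme B gene, made up most of the sum, at 451 and 554 FPKM against at most 0.155 FPKM. Without it the summed level was 7.34 and 11.9 FPKM in the WT-labelled libraries and 0.0772 to 0.395 FPKM in the resistant ones. The more specific LILRA4 and CLEC4C reached 0.761 and 1.44 FPKM at most, and NRP1 was listed at 0 in all 6 libraries. The part of these markers in the TLR7 and TLR9 differences was not tested.

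TLR10, TLR1 and TLR6 lie next to each other on chromosome 4, at chr4:38773860-38784611, chr4:38797876-38806412 and chr4:38825329-38858438 (hg19). TLR10 was higher in resistant cells of both lines and TLR1 in those of DAUDI, whereas TLR6 passed only between the resistant lines. TLR1 and TLR6 are close relatives in sequence, so that fragments of 1 may have been assigned to the other, and their values are uncertain to that extent.

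TLR10, a receptor of B cells whose ligand is debated, was the most abundant of the 3. It stood at 17.6, 31.9 and 29.0 FPKM in DAUDI, and in DOHH2 at 18.4, 27.4 and 27.6 FPKM, with no overlap between resistant and WT-labelled libraries. The difference was 0.75 in DAUDI (0.42 to 1.09, limma adjusted p = 0.0187) and 0.55 in DOHH2 (0.22 to 0.89, limma adjusted p = 0.0350). After rescaling of the libraries by the median of ratios neither passed (0.58 and 0.41, limma adjusted p of 0.0631 and 0.131), and with upper quartile scaling the DOHH2 call was lost (0.0858). Without either resistant DOHH2 library both calls were lost, at adjusted p of 0.0978 and 0.0980 for DAUDI and of 0.188 and 0.186 for DOHH2. Of its 5 isoforms, NM_030956 was tested alone as the most abundant, and rose by 1.54 in DAUDI (limma adjusted p = 0.0058) and 1.24 in DOHH2 (limma adjusted p = 0.00885). It went from 6.30 to 21.1 and 19.4 FPKM in DAUDI and from 7.16 to 18.0 and 18.5 FPKM in DOHH2. The other 4 isoforms together stood at 11.3, 10.8 and 9.67 FPKM in DAUDI, and in DOHH2 at 11.3, 9.40 and 9.12 FPKM. The share of NM_030956 was thus 35.7% and 38.8% in the WT-labelled libraries and 65.7% to 67.0% in the resistant ones. These shares are estimates of the isoform tool, were singled out after their values were seen and have no test.

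TLR1 stood at 2.31, 4.86 and 5.53 FPKM in DAUDI, and in DOHH2 at 2.89, 4.599 and 4.21 FPKM. The resistant libraries lay above both WT-labelled ones. In DAUDI the difference of 0.90 passed (0.49 to 1.32, limma adjusted p = 0.0198). In DOHH2 it was 0.47 and did not pass (0.06 to 0.88, limma adjusted p = 0.0746). The test between these differences gave -0.43 (-1.01 to 0.15, limma adjusted p = 0.258). Without either resistant DOHH2 library the DAUDI call was lost, at an adjusted p of 0.0843 or 0.0846, as it was with additive terms (0.0775).

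TLR6 stood at 3.56, 4.83 and 5.40 FPKM in DAUDI, and in DOHH2 at 4.48, 2.99 and 2.68 FPKM. The resistant libraries thus lay above the WT-labelled library in DAUDI and below it in DOHH2, and the resistant lines did not overlap. Neither difference from the WT-labelled library passed, at 0.42 in DAUDI (0.02 to 0.83, limma adjusted p = 0.0860) and -0.52 in DOHH2 (-0.92 to -0.11, limma adjusted p = 0.0592). Resistant DOHH2 was lower than resistant DAUDI, with a value of -0.67 (-1.003 to -0.35, limma adjusted p = 0.0314). That call was lost on leaving out any of the 4 resistant libraries, with values from -0.74 to -0.61. The line term of the additive fit, which also draws on the WT-labelled libraries, was -0.36 (limma adjusted p = 0.502). The test between the lines' differences gave -0.94 (-1.51 to -0.37, limma adjusted p = 0.0809). The ratio of TLR1 to TLR6 was 0.648 and 0.646 in the WT-labelled libraries, 1.005 and 1.02 in resistant DAUDI and 1.54 and 1.57 in resistant DOHH2.

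**Figure D2:**
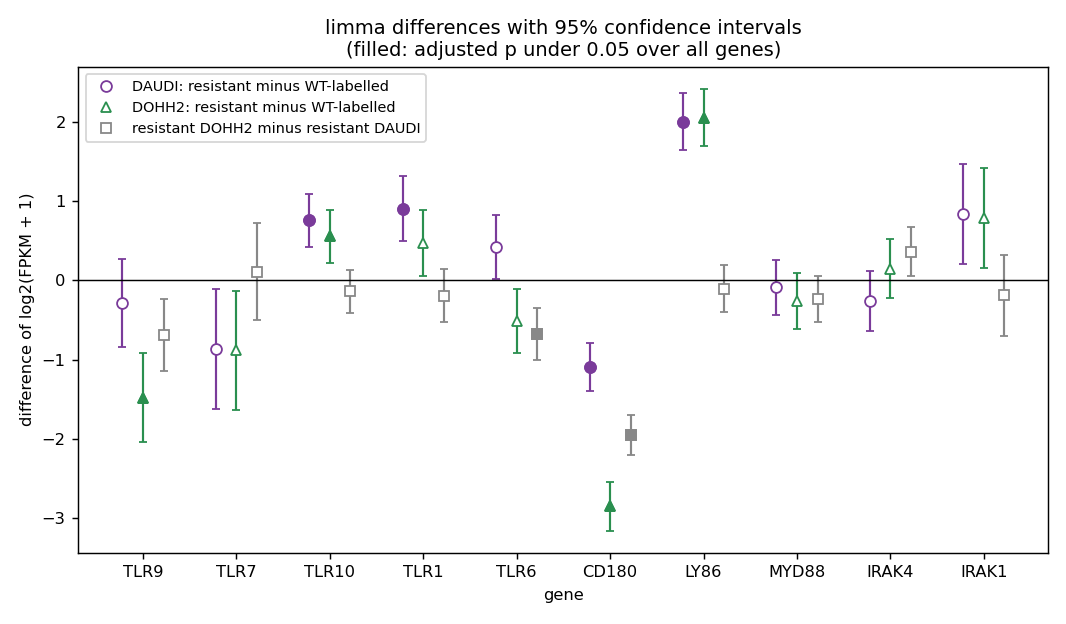
Difference of log2(FPKM + 1) for each gene with its 95% confidence interval from limma, for resistant minus WT-labelled libraries in DAUDI (circles) and DOHH2 (triangles) and for resistant DOHH2 minus resistant DAUDI (squares). Filled symbols passed an adjusted p under 0.05 over all genes: LY86 is near 2 in both lines, and CD180 is at -1.09 in DAUDI and -2.85 in DOHH2.

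The adaptor MYD88 passed in neither line. It stood at 18.7, 18.1 and 16.9 FPKM in DAUDI, and in DOHH2 at 17.9, 15.3 and 14.1 FPKM. The differences were -0.09 (-0.44 to 0.26, limma adjusted p = 0.569) and -0.27 (-0.62 to 0.08, limma adjusted p = 0.164). The intervals thus allow a difference of up to -0.62 in DOHH2. Of its 5 isoforms NM_002468 held 65.0% to 88.7% of the gene's FPKM in every library. The gene lies at chr3:38179969-38184512 (hg19).

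IRAK1, the kinase that IRAK4 activates, stood at 21.1, 36.3 and 40.5 FPKM in DAUDI, and in DOHH2 at 19.1, 38.2 and 29.4 FPKM. All resistant libraries lay above the WT-labelled ones, by 1.82 times in the mean in DAUDI and 1.77 times in DOHH2. The differences of 0.83 (0.20 to 1.46, limma adjusted p = 0.0543) and 0.78 (0.15 to 1.41, limma adjusted p = 0.0633) did not pass. Under upper quartile scaling both passed, at 0.0376 and 0.0428, as they did for the single most abundant isoform, at 0.0407 and 0.0481. Under median of ratios scaling neither passed, at limma adjusted p of 0.0522 and 0.0574. Of the 13 alternative settings, 9 in DAUDI and 10 in DOHH2 left the difference uncalled. That isoform, NM_001569, rose with the gene, from 16.4 to 29.1 and 33.4 FPKM in DAUDI and from 15.2 to 30.4 and 25.1 FPKM in DOHH2. IRAK1 lies at chrX:153275957-153285342 (hg19).

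IRAK4, which starts the kinase cascade, stood at 8.47, 6.80 and 6.96 FPKM in DAUDI, and in DOHH2 at 8.11, 9.58 and 8.64 FPKM. Neither difference passed, at -0.27 (-0.64 to 0.11, limma adjusted p = 0.179) and 0.15 (-0.23 to 0.52, limma adjusted p = 0.414). Its isoforms were less even than the gene. NM_001145257 stood at 5.68, 2.10 and 2.47 FPKM in DAUDI, and in DOHH2 at 6.54, 4.57 and 4.94 FPKM, and the other 4 together at 2.79, 4.70 and 4.49 FPKM and at 1.57, 5.004 and 3.70 FPKM. Tested alone, NM_001145257 was lower in resistant DAUDI, at -1.03 (limma adjusted p = 0.0191), but not in DOHH2, at -0.39 (0.121). It was taken for its mean over the 6 libraries, but in ibrutinib-resistant DAUDI NM_016123 stood higher, at 3.34 FPKM. The isoform levels are estimates of the isoform tool and can be unsteady: NM_001145256 stood at 2.07 FPKM in idelalisib-resistant and 0.704 FPKM in ibrutinib-resistant DAUDI. The ratio of IRAK1 to IRAK4 was 2.49 and 2.35 in the WT-labelled libraries and 3.40 to 5.82 in the resistant ones. IRAK4 lies at chr12:44152747-44183346 (hg19).

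**Figure D3:**
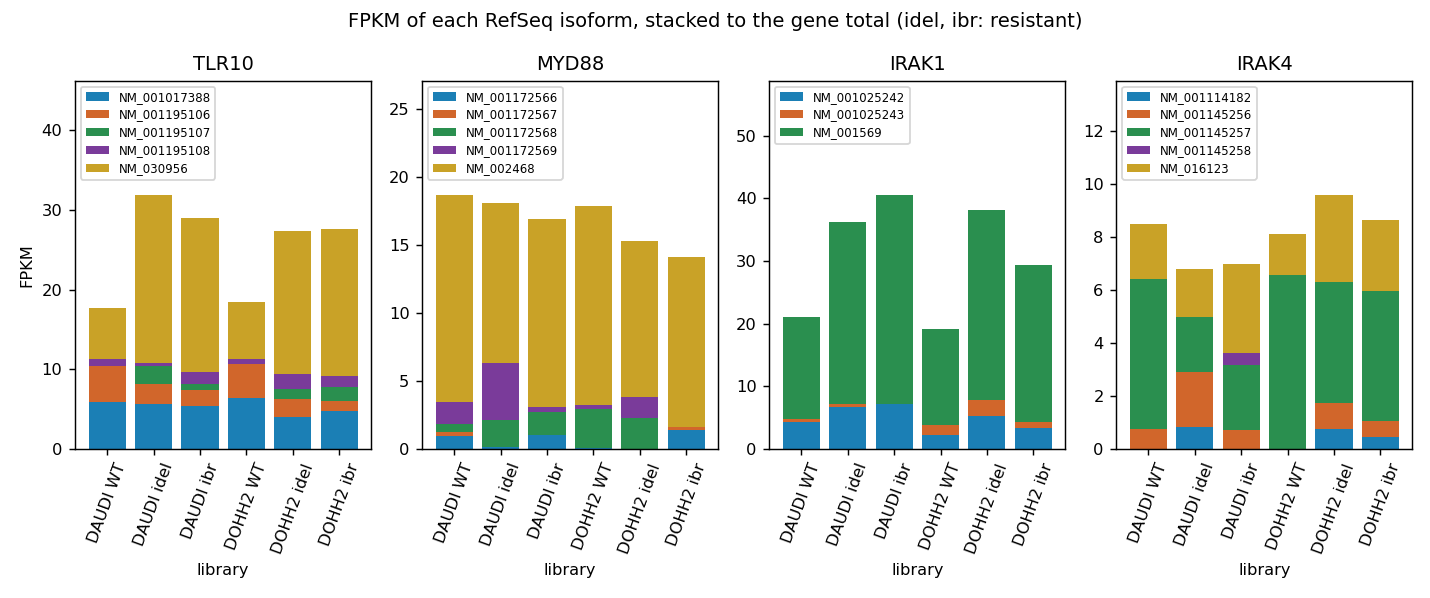
FPKM of each RefSeq isoform, stacked to the gene total, for TLR10, MYD88, IRAK1 and IRAK4 in each library (idel and ibr, resistant to idelalisib and ibrutinib). In TLR10 the segment NM_030956 is 6.30 and 7.16 FPKM in the WT-labelled libraries and 18.0 to 21.1 FPKM in the resistant ones.

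Counted over the 10 genes, 4 passed between resistant and WT-labelled libraries in DAUDI, against 41.6% of all genes. Of these, 3 were higher (TLR1, TLR10 and LY86) and 1 was lower (CD180), against 22.3% and 19.4% of all genes. In DOHH2 4 also passed, against 40.0% of all genes, with TLR10 and LY86 higher and TLR9 and CD180 lower (21.0% and 19.0%). Members were thus called about as often as any gene. Large differences were also common among all 12337 genes. Between the WT-labelled DAUDI library and its idelalisib- and ibrutinib-resistant libraries, 3836 and 4301 genes differed by 1 or more. In DOHH2 the numbers were 3921 and 3775. The median difference of the 10 was 0.17 in DAUDI and -0.06 in DOHH2, beside 0.12 and 0.05 over all genes. For 7 of the 10 the resistant and WT-labelled libraries did not overlap, against 58.8% of all genes. The resistant libraries lay above for 4 (33.3% of all genes) and below for 3 (25.5%). Between the resistant lines 2 of 10 passed, both lower in DOHH2 (TLR6 and CD180), against 26.8% of all genes (13.1% higher and 13.8% lower). The test of the difference between the lines' differences called 1 of 10, CD180, lower, against 9.60% of all genes (4.58% higher and 5.02% lower). These comparisons share libraries and are not independent of each other.

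Ibrutinib-resistant and idelalisib-resistant cultures were close for all 10 genes. None differed by 1 or more between them, in DAUDI (3.50% of all genes did, 2.20% higher and 1.31% lower with ibrutinib) or in DOHH2 (1.08%, 0.665% higher and 0.413% lower), and the largest differences were 0.39 for TLR7 in DAUDI and -0.37 for IRAK1 in DOHH2. TLR7 was the member with the largest limma difference over both lines, ibrutinib minus idelalisib, at 0.33 (-0.24 to 0.91). No member and no gene passed (limma, adjusted p of 1 for each member, 0% of all genes), and 0 members and 212 of 12337 genes had an unadjusted p under 0.05. That fit has 1 residual degree of freedom, and its intervals allow differences of up to 0.91 for TLR7 and from -0.53 to 0.43 for CD180. The WT-labelled DOHH2 and DAUDI libraries also differed by less than 1 for every member (1.09% of all genes differed by 1 or more, 0.608% higher and 0.486% lower in DOHH2), the largest value being 0.51 for TLR9.

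The other genes of the pathway, from receptors to brakes, were 42, of which 39 passed the filter. In DAUDI 5 were higher and 11 lower in resistant libraries, and in DOHH2 3 were higher and 12 lower (medians -0.08 and -0.19). With 41.0% and 38.5% of the list called, against 41.6% and 40.0% of all genes, these genes were called about as often as any gene. Between the resistant lines 4 were higher and 12 lower in DOHH2. That is 41.0% of the list, against 26.8% of all genes (13.1% higher and 13.8% lower). Some passed the filter only through the libraries in which they are high, among them TLR2, TLR8, TICAM2 and IRAK3 (WT-labelled libraries) and TIRAP and PELI3 (resistant DAUDI). Counts by direction include such genes and are no support for a direction. The values of these genes are given as a description, and their calls are not used as support. TLR8, the neighbour of TLR7 on the X chromosome and like it an RNA sensor, stood at 2.83 and 2.30 FPKM in the WT-labelled libraries of DAUDI and DOHH2 and at or under 0.0147 FPKM in the resistant ones. TLR2, the partner of TLR1 and TLR6, stood at 1.13 and 1.02 FPKM in the WT-labelled libraries and at or under 0.00925 FPKM in the others. UNC93B1, the chaperone that brings TLR7 and TLR9 to endosomes, was chosen after its values were seen. It was lower in both lines, at 30.9, 16.7 and 15.0 FPKM in DAUDI, and in DOHH2 at 29.6, 13.3 and 13.4 FPKM (limma adjusted p = 0.0140 and 0.0102).

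Among adaptors, TICAM2, which links TLR4 to the TRIF branch, stood at 5.91, 5.96e-06 and 0.270 FPKM in DAUDI, and in DOHH2 at 6.84, 0.105 and 0.515 FPKM. It overlaps a read-through gene, so that its share of fragments is uncertain. TIRAP, which brings MYD88 to surface receptors, stood at 0.655, 1.68 and 2.19 FPKM in DAUDI, and in DOHH2 at 0.824 FPKM and a listed 0 in both resistant libraries. The test between the lines' differences called 2 of the 39 genes (5.13%, against 9.60% of all genes), the adaptors TIRAP and PIK3AP1. TIRAP passed the filter only through resistant DAUDI, so its call is not used as support. PIK3AP1, which links the receptors to PI3K, went from 48.3 to 26.4 and 31.3 FPKM in DAUDI and from 35.2 to 65.8 and 69.5 FPKM in DOHH2. Its test gave 1.65 (limma adjusted p = 0.0387).

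Of the 19 kinases, ligases and effectors, 2 were higher and 3 lower in DAUDI, and 1 was higher and 4 lower in DOHH2, against 41.6% and 40.0% of all genes called in either direction. The inhibitory family member IRAK3 stood at 1.92 and 1.54 FPKM in the WT-labelled libraries and at or under 0.0142 FPKM in the resistant ones. TRAF3, a ligase of the interferon branch and a brake on NF-kB, stood at 25.5, 6.91 and 7.57 FPKM in DAUDI, and in DOHH2 at 27.0, 7.06 and 6.20 FPKM (limma adjusted p = 0.00602 and 0.00471). IRF5, a transcription factor activated through MYD88, fell in DOHH2, from 15.5 to 4.96 and 4.92 FPKM (-1.47, limma adjusted p = 0.00605), and stood at 18.4, 14.9 and 13.4 FPKM in DAUDI. IRF7, a related factor, rose in DAUDI, from 2.75 to 9.88 and 16.2 FPKM (1.87, limma adjusted p = 0.0271). In DOHH2 IRF7 stood at 5.40, 2.36 and 2.11 FPKM. Neither IRF5 in DAUDI nor IRF7 in DOHH2 passed (limma adjusted p = 0.103 and 0.101). The test between the lines' differences called neither gene (limma adjusted p = 0.0549 and 0.0595). The kinase MAP3K8 was lower in both lines, at 11.9, 4.41 and 5.53 FPKM in DAUDI, and in DOHH2 at 8.12, 1.41 and 1.62 FPKM (limma adjusted p = 0.0214 and 0.00773). Of the 5 brakes, TNFAIP3 and TNIP1 were lower in both lines, beside 19.4% (DAUDI) and 19.0% (DOHH2) of all genes called lower. The other 3 did not pass against the WT-labelled library in either line. TNFAIP3, the A20 inhibitor of NF-kB and itself one of its targets, stood at 34.0, 3.96 and 6.39 FPKM in DAUDI, and in DOHH2 at 29.7, 0.370 and 0.771 FPKM (-2.53 and -4.30, limma adjusted p = 0.0154 and 0.00529). TNIP1, its binding partner, gave -0.62 and -1.38 (limma adjusted p = 0.0264 and 0.00529). CYLD, a deubiquitinase, was lower in resistant DOHH2 than in resistant DAUDI, with a value of -1.67 (limma adjusted p = 0.0492). PELI3, a ligase, stood at 1.40 and 3.24 FPKM in resistant DAUDI and at most at 0.256 FPKM in the other 4 libraries. HSP90B1, a chaperone for folding of the receptors and of much else, was lower in DOHH2, at 279 against 47.5 and 52.0 FPKM (-2.47, limma adjusted p = 0.0469). In DAUDI it stood at 252, 158 and 362 FPKM and did not pass (limma adjusted p = 0.927). The test between the lines' differences did not call HSP90B1 (limma adjusted p = 0.179).

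**Figure D4:**
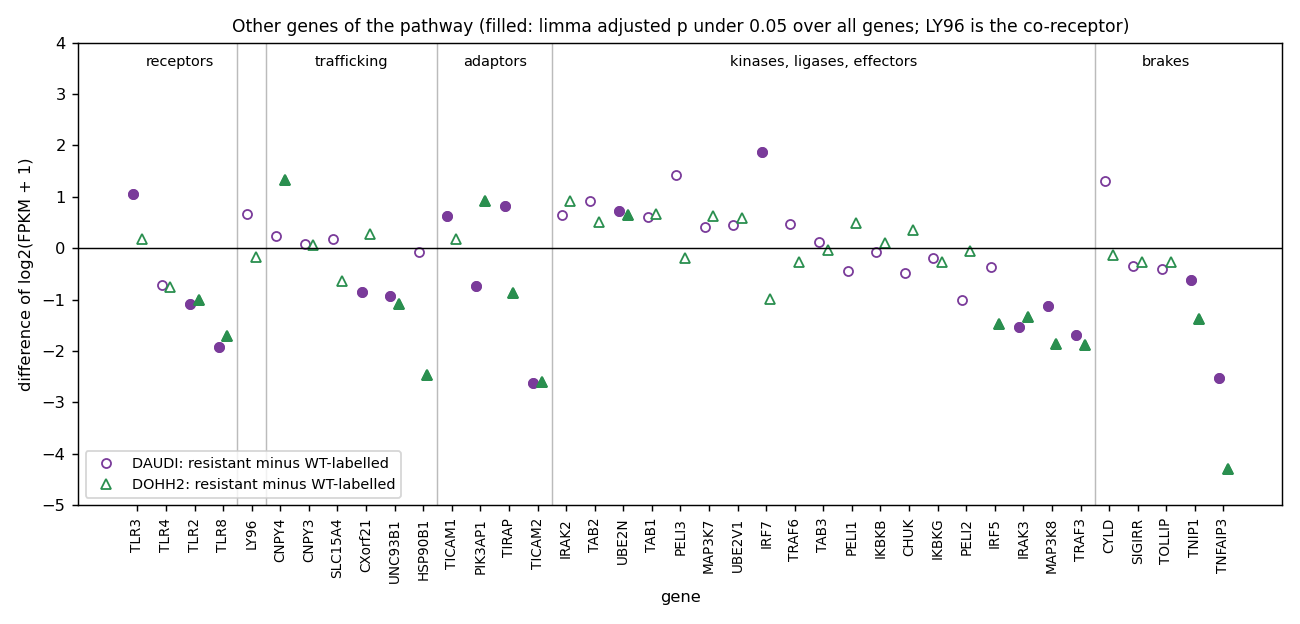
Difference of log2(FPKM + 1), resistant minus WT-labelled libraries, for the 39 other genes of the pathway by role, with circles for DAUDI and triangles for DOHH2. Filled symbols passed limma at an adjusted p under 0.05: UNC93B1, MAP3K8, TRAF3, TNIP1 and TNFAIP3 lie below 0 in both lines. UBE2N is filled above 0 in both lines, at 0.73 in DAUDI and 0.65 in DOHH2. TLR2, TLR8, TICAM2 and IRAK3 are also filled below 0 in both lines. They passed the filter on low values only through the WT-labelled libraries, so their calls are not used as support.

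The genes most like each member were found by the root mean square difference of log2(FPKM + 1), centred on its mean over the 6 libraries, among genes that reach 5 FPKM. Since the 6 libraries fall into few sets, many genes share such a pattern. Nearest to LY86 was IRF8, a transcription factor of B cells and myeloid cells (0.07), at 21.0, 98.6 and 94.4 FPKM in DAUDI, and in DOHH2 at 19.5, 81.4 and 83.3 FPKM. Nearest to TLR9 was CIITA, the activator of MHC class II genes (0.12), at 10.5, 9.44 and 8.46 FPKM and at 13.3, 4.66 and 5.38 FPKM. CD180 was nearest to FAN1, a nuclease gene of DNA repair (0.10), TLR7 to TLN1, the talin gene (0.06), TLR10 to PHB2, a prohibitin gene (0.03), and IRAK4 to PIK3R2, a regulatory subunit gene of PI3K (0.03). TRMT112 was nearest to TLR1, FAM69A to TLR6, PIGO to MYD88 and CD2BP2 to IRAK1. The next in order were INTS10 for LY86, CXXC5 for TLR9, PLEKHG4 for CD180, SMYD3 for TLR7, BMS1P20 for TLR10 and NOP9 for IRAK4. For TLR1, TLR6, MYD88 and IRAK1 they were ZMAT2, IMPA1, PSD4 and REXO4.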

How the data were processed

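Messenger RNA of 6 cultures was prepared with a strand-keeping kit, per the labels' protocols. Per the submitters' processing notes, bcl2fastq, cutadapt, TopHat2 (hg19) and Cufflinks were used, in unstated versions. The authors deposited FPKM per RefSeq isoform (43490 isoforms). The coverage signal that the authors deposited, named so in the file headers, served for relative depth. File positions were turned from 0-based to 1-based starts.

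FPKM were summed per gene symbol. Isoforms without a gene name (528) and genes with a failed estimate (10) were dropped. Genes at 1 FPKM or more in at least 1 library were tested (12337). limma 3.58.1 (R 4.3.3, trended empirical Bayes, two-sided) was run on log2(FPKM + 1) with a mean for each line and resistance (2 residual degrees of freedom), and for the drugs on the 4 resistant libraries with the line as a term (1 residual degree of freedom). Members and lists were chosen with earlier results of these data known. Named were all members, the 8 other pathway genes with the largest called difference per comparison, and for each member the 2 genes nearest in pattern. UNC93B1 and UBE2N were named after their values were seen. The fit was tested on simulated data. Alternatives were pseudocounts of 0.1 and 5, other filters, scalings, fits and left-out libraries.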

Additional observations from a re-analysis of the deposited data

Results flagged for a closer look

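CD180 differed between the lines in its difference between resistant and WT-labelled libraries, by -1.76 on the log2(FPKM + 1) scale (DOHH2 minus DAUDI, limma adjusted p = 0.0193; -1.91 to -1.31 over 12 alternative settings, adjusted p 0.0134 to 0.157). All 4 resistant libraries lay below the WT-labelled library of their line. Whether these differences arose within the lines cannot be told apart from a difference in the origin of the WT-labelled libraries.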

How the results depend on the processing

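Each line had 13 alternatives to its comparison of resistant with WT-labelled libraries. They include the additive fit, whose value is shared by both lines and is no test within 1 line. The LY86 calls in both lines and the CD180 call in DOHH2 were kept in all of them. Counted over the 10 genes, leaving out 1 resistant library gave 1 to 5 calls in DAUDI (4 with all), 2 to 4 in DOHH2 (4 with all), 0 to 2 between the resistant lines (2 with all) and 0 to 2 for the difference between the lines' differences (1 with all). The lowest counts came without a resistant DOHH2 library. Leaving out a resistant DAUDI library also leaves 1 residual degree of freedom and gave 4 or 5 calls in DAUDI. Upper quartile scaling gave 7 calls in DOHH2 and, like the median of ratios, 2 for the difference between the differences. The line term of the additive fit, which also draws on the WT-labelled libraries, gave 0 calls among the 10 and 0 among all genes. The main design called 3312 genes between the resistant lines. For resistance the additive fit called 3364 of all genes (5136 in DAUDI with the main design). Without a DOHH2 library all-gene calls were 2032 in DAUDI, 1648 and 1715 in DOHH2, 501 and 468 between the lines, and 54 and 0 for the difference between the differences. Without the ibrutinib-resistant DAUDI library 2111 genes were called between the lines. All-gene counts of differences of 1 or more were 817 and 177 with pseudocounts of 0.1 and 5 between the drugs in DAUDI (432), 350 and 70 in DOHH2 (133), and 295 and 85 between the WT-labelled libraries (135). The drug comparison without a library leaves no residual degree of freedom and was not run. A filter of 5 FPKM gave 1 gene, no member, between the drugs.

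Directions reversed only for differences that had not passed. With additive terms TLR6 in DAUDI gave -0.047 and IRAK4 in DOHH2 -0.059. With the single highest isoform IRAK4 in DOHH2 gave -0.39, and ibrutinib minus idelalisib gave 0.17 for MYD88 and 0.13 for IRAK4. That comparison also gave -0.022 and -0.029 for TLR1 and -0.040 and -0.048 for TLR6 under the median of ratios and the upper quartile. Without 1 library TLR7 ranged from -0.087 to 0.30 between the resistant lines. Its difference between the differences was 0.0051 with the median of ratios and -0.21 to 0.18 without 1 library, where IRAK1 ranged from -0.23 to 0.13 and LY86 from -0.021 to 0.12. The median over all genes moved from 0.12 to -0.02 with the median of ratios in DAUDI. The cause of these changes was not tested. The labels give no replicate numbers, and the drug comparison has the line as a term. Without counts, the depth behind each value is unknown.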
